A study of Mus musculus with 4 samples.

Results

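Matrix metalloproteases (MMPs), ADAMTS proteases, their catalytically inactive ADAMTS-like relatives and the tissue inhibitors of metalloproteases (TIMPs) were followed in mouse macrophages with and without Hem1. The genes were taken by symbol: all Mmp genes, Timp1 to Timp4, and the numbered Adamts and Adamtsl genes. This gave 48 of the 19505 genes measured, namely 21 MMP, 18 ADAMTS, 5 ADAMTS-like and 4 TIMP genes. Hem1 is encoded by Nckap1l and is the blood-cell form of a WAVE complex subunit, through which Rac drives branched actin growth. Marrow from femurs of wild-type (WT) and Hem1 knockout (Hem1 KO) mice was grown for 8 days with L929 cell-conditioned medium, which supplies CSF1, and no other treatment. Each genotype was represented by 2 arrays from separate mice, so that n is 2 per genotype throughout. Strain, age and the deleted part of Nckap1l are not given in the sources used here.

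Values are log2 and came from single-colour arrays. The background was the level below which 95% of 1448 olfactory, vomeronasal and taste receptor genes lay, 5.38 to 6.04 over the arrays, and 12587 to 13071 genes exceeded it. Hem1 KO replicate 1 had the narrowest spread of values (SD 2.00 across genes against 2.15 on each of the others). The median over all genes was 6.82 (WT) and 6.95 (Hem1 KO) on the replicate 1 arrays, against 6.42 and 6.49 on the replicate 2 arrays. The differences below, also those with an array left out, keep this offset unless centring or quantile normalization is named. Nckap1l measured 11.37 and 11.11 on WT against 10.04 and 9.62 on Hem1 KO arrays (log2 difference -1.41, SE 0.32, adjusted p = 0.0467 by limma). That call ended when either WT replicate was left out (-1.28 without the first, -1.54 without the second) and also without Hem1 KO replicate 2 (-1.20). All 9 measured macrophage markers were above background on every array, with 0 called by limma (0 higher and 1 lower under an unadjusted p of 0.05). All 9 had a lower mean in Hem1 KO cultures (median difference -0.37), and in 6 of them (66.7%) both Hem1 KO arrays lay below both WT arrays, against 13.3% of all genes.

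MMPs are zinc proteases that are made as inactive precursors and cut collagens, gelatin, elastin and other matrix proteins once their propeptide is removed. ADAMTS proteases are secreted and carry thrombospondin repeats, and several of them cleave large proteoglycans such as versican and aggrecan. TIMPs fold into the active site of these proteases and block them in a one-to-one complex. Macrophages are known for MMP9, MMP12 and MMP14, whereas MMP2, TIMP3 and most ADAMTS proteases are better known from fibroblasts and other stromal cells.

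Both sides of the balance moved. In Hem1 KO macrophages 6 of the 39 protease genes were higher and 2 were lower, while 2 of the 4 TIMP genes were higher and 0 were lower (limma, adjusted p under 0.05 over all genes; at an unadjusted p under 0.05 the TIMPs had 2 higher and 0 lower). Over all 48 genes, 8 (16.7%) were called higher and 2 (4.17%) lower. Of all genes tested 1.61% were called, 1.48% higher and 0.133% lower. The higher genes were the gelatinase Mmp2, Mmp14, Mmp16 and Mmp23, the proteoglycan-cleaving Adamts4 and Adamts5, and the inhibitors Timp1 and Timp3. The lower genes were the collagenase Mmp8 and the second gelatinase, Mmp9. In the platform annotation their Entrez Gene identifiers were 17390 for Mmp2, 17387 for Mmp14, 17389 for Mmp16, 26561 for Mmp23, 240913 for Adamts4, 23794 for Adamts5, 21857 for Timp1, 21859 for Timp3, 17394 for Mmp8 and 17395 for Mmp9.

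**Figure D1:**
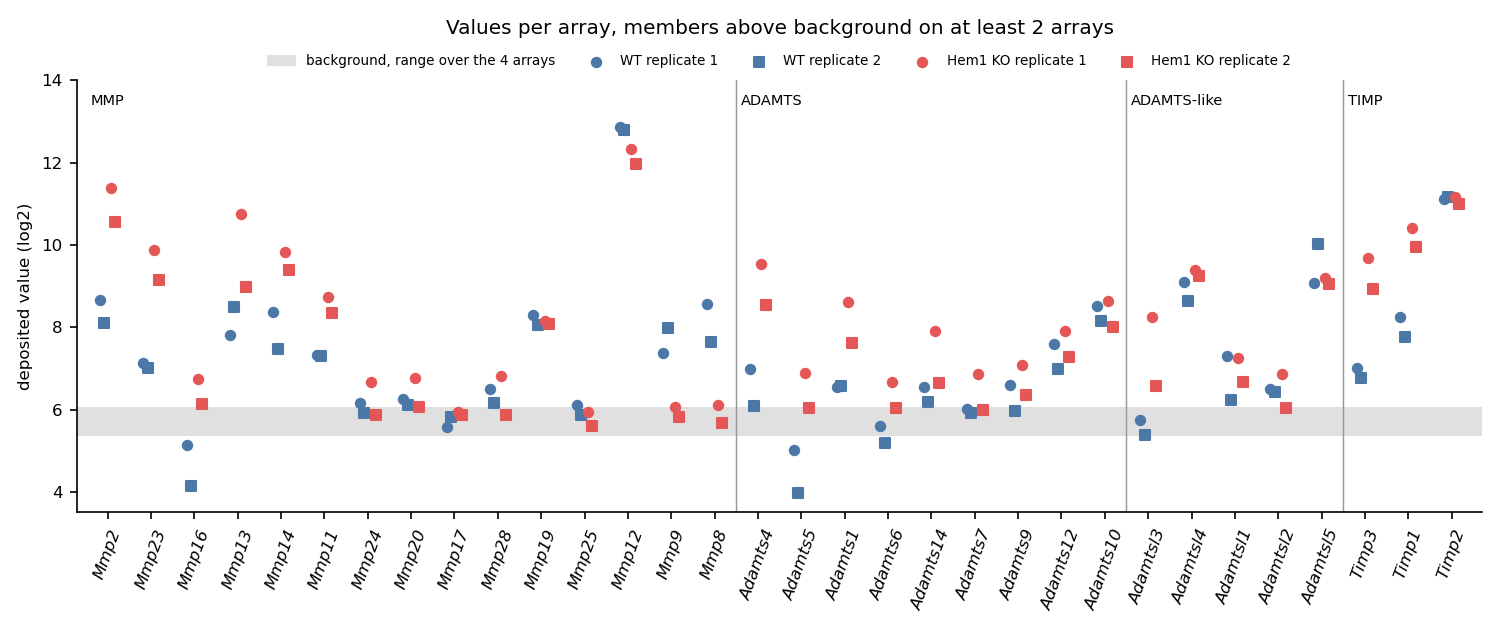
Deposited log2 values of the members above background on at least 2 arrays, 1 point per array (blue WT, red Hem1 KO, circles replicate 1, squares replicate 2), ordered within each family by the difference between genotypes; the grey band is the range of the background, 5.38 to 6.04. Both Hem1 KO arrays lie above both WT arrays for Mmp2, Mmp23, Adamts4, Timp1 and Timp3, and below them for Mmp8, Mmp9 and Mmp12.

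The 2 gelatinases moved in opposite directions. Mmp2, which cuts denatured collagen and the collagen of basement membranes, measured 8.66 and 8.12 on WT against 11.38 and 10.55 on Hem1 KO arrays. Its values rose 5.97-fold (log2 difference 2.58, SE 0.36, adjusted p = 0.00246 by limma). Mmp9, a gelatinase of macrophages, osteoclasts and neutrophils, measured 7.38 and 7.99 in WT against 6.05 and 5.81 in Hem1 KO cultures. It fell 3.37-fold (log2 difference -1.75, SE 0.33, adjusted p = 0.0139 by limma), to values close to background. In neither gene did the arrays of the genotypes overlap.

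Among the collagenases, only Mmp8 passed the test. This enzyme, best known from neutrophil granules, measured 8.57 and 7.65 in WT against 6.12 and 5.69 in Hem1 KO cultures, a 4.62-fold fall (log2 difference -2.21, SE 0.37, adjusted p = 0.00561 by limma). The Hem1 KO values lay close to background, which was 6.04 and 5.38 on those arrays. Mmp13, the main interstitial collagenase of the mouse, measured 7.82 and 8.49 in WT against 10.75 and 8.98 in Hem1 KO cultures. The difference of 1.71 (SE 0.48) did not pass (adjusted p = 0.157 by limma), although the arrays did not overlap. Hem1 KO replicate 1 decided its size: the difference was 0.82 without that array and 2.60 without Hem1 KO replicate 2, where it passed, as it did without WT replicate 2 (2.04). It also passed with a prior spread that follows intensity (adjusted p = 1.74e-07 by limma). The collagenase genes Mmp1a and Mmp1b were below background on all arrays.

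Of the 5 measured membrane-bound MMPs, Mmp14 and Mmp16 were higher and 0 were lower. Mmp14 encodes MT1-MMP, the cell-surface collagenase that also activates the MMP2 precursor, and measured 8.38 and 7.48 in WT against 9.83 and 9.40 in Hem1 KO cultures. This was a 3.21-fold rise (log2 difference 1.68, SE 0.36, adjusted p = 0.0332 by limma). Mmp16, which encodes the related MT3-MMP, read 5.15 and 4.15 on the WT arrays, below background on both, and 6.74 and 6.15 on the Hem1 KO arrays. Its log2 difference was 1.80 (SE 0.38, adjusted p = 0.0302 by limma). Setting the WT arrays at background gave a rise of 1.68-fold, a bound that has no error attached and was not tested. Mmp24 (difference 0.25), Mmp17 (0.21) and Mmp25 (-0.21) lay near background in both genotypes and did not pass.

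Mmp23, an unusual family member whose precursor is anchored in the membrane by its propeptide, also rose. It measured 7.14 and 7.02 in WT against 9.89 and 9.16 in Hem1 KO cultures, 5.44-fold higher (log2 difference 2.44, SE 0.34, adjusted p = 0.00235 by limma). The 2 WT arrays lay close together and far below both Hem1 KO arrays. Mmp11, stromelysin 3, measured 7.33 and 7.29 in WT against 8.73 and 8.35 in Hem1 KO cultures. That difference of 1.23 (SE 0.32) missed the threshold (adjusted p = 0.0974 by limma) without overlap between the genotypes. It passed after centring of the arrays (1.13), after quantile normalization (1.21) and with the intensity-dependent prior (adjusted p = 0.0194 by limma). The difference was 1.41 without Hem1 KO replicate 2 and 1.04 without Hem1 KO replicate 1.

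Mmp12, the macrophage elastase, was far above background on every array. It measured 12.88 and 12.78 in WT against 12.34 and 11.98 in Hem1 KO cultures. The difference of -0.67 (SE 0.32, 95% interval -1.36 to 0.01) did not pass (adjusted p = 0.994 by limma), while the arrays did not overlap. With a prior spread that follows intensity it passed (adjusted p = 2.17e-05 by limma). Mmp19, which cuts basement membrane proteins, measured 8.29 and 8.06 in WT against 8.14 and 8.09 in Hem1 KO cultures, with an interval of -0.73 to 0.61 around a difference of -0.06. Mmp20 (0.22) and Mmp28 (0.00) were also above background on all arrays and did not pass.

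**Figure D2:**
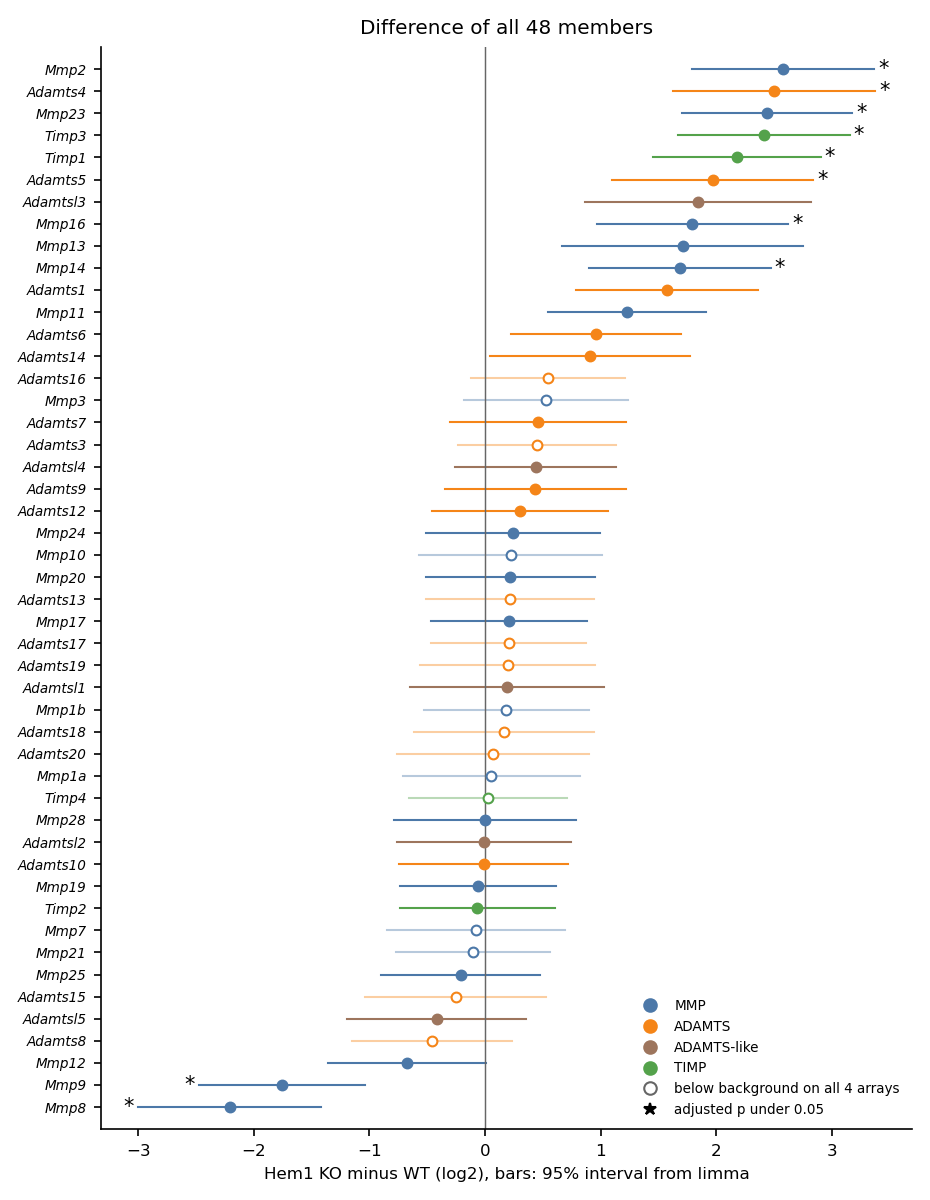
Log2 difference between Hem1 KO and WT macrophages for all 48 genes, with the 95% interval from limma, coloured by family; open points mark genes below background on all 4 arrays and asterisks an adjusted p under 0.05. The called genes run from 2.58 for Mmp2 to 1.68 for Mmp14 at the top, with Mmp9 (-1.75) and Mmp8 (-2.21) at the bottom.

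The ADAMTS genes that changed were among those that cleave proteoglycans, 2 of 7 measured, with 0 lower. Adamts4, an aggrecanase, measured 6.99 and 6.08 in WT against 9.53 and 8.55 in Hem1 KO cultures, a 5.67-fold rise (log2 difference 2.50, SE 0.40, adjusted p = 0.00474 by limma). Adamts5, the other main aggrecanase, read 5.01 and 3.98 on the WT arrays, below background, and 6.88 and 6.05 on the Hem1 KO arrays. Its log2 difference was 1.97 (SE 0.40, adjusted p = 0.0227 by limma). Setting the WT arrays at background gave a rise of 1.70-fold, which was not tested. In both genes each Hem1 KO array lay above each WT array.

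Adamts1, which cleaves versican and lies next to Adamts5 on chromosome 16, measured 6.54 and 6.57 in WT against 8.63 and 7.63 in Hem1 KO cultures. Its difference of 1.57 (SE 0.36) fell just short of the threshold (adjusted p = 0.0512 by limma). It passed after centring of the arrays (1.47) and with the intensity-dependent prior (adjusted p = 0.00361 by limma), and not after quantile normalization (1.53). The difference was 2.07 without Hem1 KO replicate 2 and 1.07 without Hem1 KO replicate 1. Adamts14, a procollagen N-propeptidase, measured 6.54 and 6.19 in WT against 7.91 and 6.64 in Hem1 KO cultures (difference 0.91, SE 0.40, adjusted p = 0.855 by limma). Its difference was 1.54 without Hem1 KO replicate 2 and 0.28 without Hem1 KO replicate 1. Adamts6 measured 5.59 and 5.20 in WT cultures, below background, against 6.66 and 6.05 in Hem1 KO cultures. Its log2 difference of 0.96 (SE 0.34) did not pass (adjusted p = 0.444 by limma). With the WT arrays set at background the gap was 1.58-fold. Adamts7 (0.46), Adamts9 (0.44), Adamts12 (0.31) and Adamts10 (-0.01) were above background on every array and did not pass.

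ADAMTS-like proteins share the thrombospondin repeats of the ADAMTS family but have no protease domain, and several bind fibrillin microfibrils. Limma called 0 of the 5, with 1 higher and 0 lower where p was under 0.05 unadjusted. That one, Adamtsl3, read 5.74 and 5.39 on the WT arrays, below background, and 8.25 and 6.57 on the Hem1 KO arrays. Its log2 difference was 1.84 (SE 0.45, adjusted p = 0.0731 by limma). With the WT arrays set at background the gap was 3.28-fold. The 2 Hem1 KO arrays stood far apart: the difference was 2.68 without Hem1 KO replicate 2 and 1.01 without Hem1 KO replicate 1. Without WT replicate 1 it was 2.02. The gene passed after centring of the arrays (1.74) and with the intensity-dependent prior (adjusted p = 0.00215 by limma). Adamtsl4 (0.44), Adamtsl1 (0.19), Adamtsl2 (-0.01) and Adamtsl5 (-0.42) were above background on all arrays and did not pass.

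Of the TIMPs, Timp1 and Timp3 rose, and Timp2 and Timp4 did not pass. Timp1, the secreted inhibitor known as a partner of MMP9, measured 8.24 and 7.76 in WT against 10.42 and 9.95 in Hem1 KO cultures, a 4.53-fold rise (log2 difference 2.18, SE 0.34, adjusted p = 0.0035 by limma). Timp3, which binds to the matrix and also inhibits ADAMTS4, ADAMTS5 and ADAM17, measured 7.01 and 6.76 in WT against 9.67 and 8.92 in Hem1 KO cultures. It rose 5.32-fold (log2 difference 2.41, SE 0.35, adjusted p = 0.00255 by limma). The genotypes' arrays did not overlap in either gene.

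Timp2, which inhibits MMP2 and also helps MMP14 to activate its precursor, was far above background in both genotypes. It measured 11.13 and 11.17 in WT against 11.17 and 11.00 in Hem1 KO cultures, with an interval of -0.73 to 0.61 around a difference of -0.06. The sign of that difference turned after quantile normalization (0.07). Timp4 was below background on all 4 arrays, at 5.34 and 5.20 in WT against 5.47 and 5.12 in Hem1 KO cultures.

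Timp1, Timp3 and Timp4 lie within the genes of the synapsins Syn1, Syn3 and Syn2 in RefSeq, and none of these synapsins passed the test. Syn1 measured 7.99 and 8.09 in WT against 7.35 and 6.33 in Hem1 KO cultures (difference -1.20, adjusted p = 0.236 by limma). Syn3 was below background on all arrays. Mib2, whose RefSeq span overlaps that of Mmp23, differed by -0.02.

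Set side by side, the raised proteases Mmp2 (2.58), Adamts4 (2.50) and Mmp23 (2.44) lay close to the raised inhibitors Timp3 (2.41) and Timp1 (2.18). The median difference was 0.21 over the MMP genes, 0.37 over the ADAMTS genes, 0.19 over the ADAMTS-like genes and 1.10 over the TIMP genes, against 0.01 over all genes tested. Without Hem1 KO replicate 1 the medians were -0.11 (MMP), 0.04 (ADAMTS), -0.10 (ADAMTS-like) and 0.90 (TIMP), and that of all genes was -0.18. Leaving out Hem1 KO replicate 2 gave 0.48, 0.62, 0.48 and 1.31 in the same order, against 0.21 over all genes. The ADAMTS-like median was 0.67 without WT replicate 1 (all genes 0.16) and 0.05 without WT replicate 2 (all genes -0.13). The TIMP median lies between the raised Timp1 and Timp3 and the other two, and matches no single gene. These medians describe the lists and were not tested.

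Selected pairs of a TIMP and a protease were compared within each array, whether or not the TIMP is a strong inhibitor of that protease. The log2 ratio of Timp1 to Mmp9 was 3.94 higher in Hem1 KO macrophages, running from 3.27 to 4.60 over the 4 pairings of a WT with a Hem1 KO array. For Timp1 over Mmp8 the shift was 4.39 (4.15 to 4.63), and for Timp1 over Mmp12 it was 2.85 (2.60 to 3.10). Of these proteases Mmp9 and Mmp8 fell, to values close to background on the Hem1 KO arrays, and Mmp12 did not pass. Background may therefore limit the shifts for Mmp9 and Mmp8 and their ranges. For Timp2 over Mmp2 the ratio moved the other way, by -2.64 (-3.27 to -2.02), and for Timp2 over Mmp14 by -1.75 (-2.35 to -1.15). Where both partners rose the shifts were smaller and of either sign. They were -0.17 (-0.36 to 0.02) for Timp3 over Mmp2, -0.09 (-0.54 to 0.36) for Timp3 over Adamts4 and -0.40 (-0.61 to -0.18) for Timp1 over Mmp2. Upward shifts were 0.50 (0.26 to 0.73) for Timp1 over Mmp14 and 0.44 (0.01 to 0.87) for Timp3 over Adamts5, whose WT arrays were below background. Timp1 over Mmp13, which was not called, shifted by 0.47 with a range across 0 (-0.75 to 1.70). These ratios show unequal change on the arrays, were not tested and say nothing about protein or activity.

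A group of MMP genes lies side by side on chromosome 9. In the RefSeq order (GRCm38.p6) the 10 protein-coding genes from Mmp13 to Mmp7 are all MMPs, and 9 of them were measured here (Mmp27 was not analysed). Of these 9, limma called 0 higher and 1 lower, Mmp8, and before adjustment 1 higher (Mmp13) and 1 lower had a p under 0.05. Immediate neighbours read very differently: Mmp13 and Mmp12, which sit next to each other, were above background on all arrays with differences of 1.71 and -0.67, whereas the next 4 genes, Mmp1b, Mmp3, Mmp1a and Mmp10, were below background on all arrays. In all, 5 of the 9 were below background throughout, with values of 3.74 to 5.82.

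**Figure D3:**
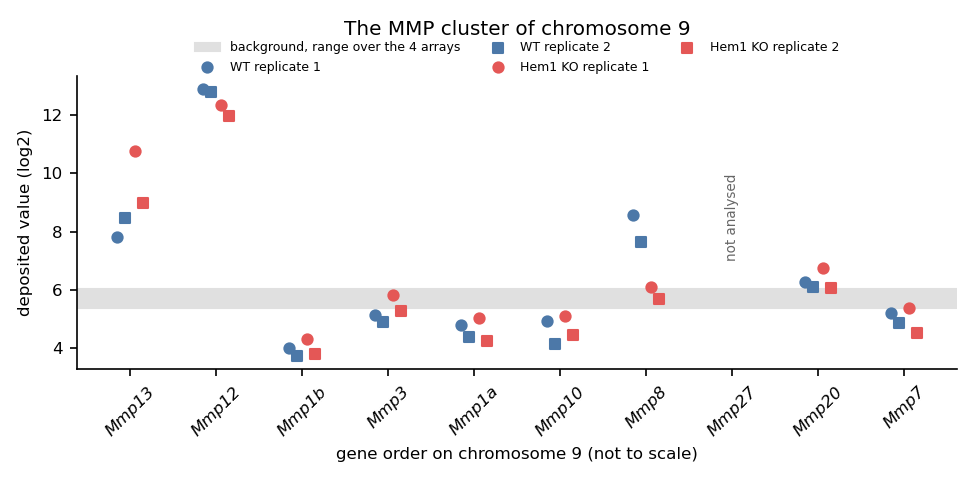
Deposited log2 values of the MMP genes of chromosome 9 in RefSeq order, which is not to scale (blue WT, red Hem1 KO, circles replicate 1, squares replicate 2); the grey band is the range of the background. Mmp13 and Mmp12 lie side by side above background, the next 4 genes lie in or below the band, and Mmp8 is lower on both Hem1 KO arrays.

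Letters shared by the promoters of the cluster were searched next. RefSeq promoter windows of 250 bases before to 50 bases after a gene start (GRCm38.p6) were at hand for 33 of the 48 genes, and 3 motifs were searched in them on both strands. Of the called genes 5 had a window and 5 had none, namely Mmp2, Mmp9, Mmp16, Adamts4 and Adamts5. The AP-1 motif TGAGTCA, a site through which growth factor and stress signals act on MMP genes, was found in 7 of the 9 cluster genes and in 0 of the 24 others, against 5.2% of all promoter windows. A gene was counted when any of its windows matched. Mmp12 was counted through its second start only, as the window of its first start has none of these letters. The TATA box letters TATAAA were found in 9 of 9 cluster genes and 3 of 24 others, against 13.6% of all windows. In Mmp12 they begin at position 5 after the start, again for the second start only. The GC box GGGCGG was found in 0 of 9 cluster genes and 20 of 24 others, against 35.7% of all windows. No motif overlaps another in letters, and a match is a description of the sequence, not of binding.

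The 100 bases before the start are shown for 4 cluster genes with unlike values (Mmp13 above WT on both Hem1 KO arrays but not called, Mmp12 high in both genotypes, Mmp3 below background, Mmp8 called lower) and for the 4 raised genes outside it that have a window (Mmp14, Mmp23, Timp1, Timp3). They lie at chr9:7272414-7272513 (Mmp13), chr9:7347274-7347373 (the second of 2 Mmp12 starts), chr9:7445722-7445821 (Mmp3), chr9:7558329-7558428 (Mmp8), chr14:54431498-54431597 (Mmp14), chrX:20870066-20870165 (Timp1) and chr10:86300312-86300411 (Timp3), all on the + strand. The 2 starts of Mmp23 have theirs on the - strand, at chr4:155653385-155653484 (upstream start) and chr4:155653291-155653390 (downstream start). Capitals mark the AP-1, TATA and GC box letters that lie wholly within the stretch.
Mmp13: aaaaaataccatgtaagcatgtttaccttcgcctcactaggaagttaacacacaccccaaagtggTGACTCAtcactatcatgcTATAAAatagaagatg
Mmp12: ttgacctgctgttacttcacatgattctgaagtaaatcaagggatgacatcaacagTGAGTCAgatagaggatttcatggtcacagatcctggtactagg
Mmp3: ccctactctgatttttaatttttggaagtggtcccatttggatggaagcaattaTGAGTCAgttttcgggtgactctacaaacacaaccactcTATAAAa
Mmp8: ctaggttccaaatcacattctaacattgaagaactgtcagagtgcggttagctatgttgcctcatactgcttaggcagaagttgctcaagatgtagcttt
Mmp14: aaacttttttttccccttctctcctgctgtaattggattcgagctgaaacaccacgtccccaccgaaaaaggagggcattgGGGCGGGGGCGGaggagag
Mmp23, upstream start: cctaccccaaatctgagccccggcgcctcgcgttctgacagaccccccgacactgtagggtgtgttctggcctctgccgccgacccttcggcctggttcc
Mmp23, downstream start: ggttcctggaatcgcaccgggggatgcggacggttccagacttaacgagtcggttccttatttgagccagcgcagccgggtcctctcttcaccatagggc
Timp1: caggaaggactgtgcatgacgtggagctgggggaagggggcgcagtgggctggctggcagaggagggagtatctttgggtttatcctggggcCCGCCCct
Timp3: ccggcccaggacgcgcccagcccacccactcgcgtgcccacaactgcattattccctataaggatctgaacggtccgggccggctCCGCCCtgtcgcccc
The AP-1 letters begin at position -35 in Mmp13, -44 in Mmp12 (second start) and -46 in Mmp3, counted back from the start. The window of the first Mmp12 start, which is not shown, has none of them. Those 3 genes share the letters, and of them Mmp13 and Mmp12 were above background and Mmp3 was not. Mmp8, the called cluster gene, has none of the AP-1 letters in its window, and its TATAAA begins at position -3 and runs across the start. The raised Mmp14, Timp1 and Timp3 carry GC boxes, at -19 and -13 in Mmp14, -8 in Timp1 and -15 in Timp3 within the stretch shown. Mmp23, also raised, has none of the letters before either start, and its GC boxes lie at 19 and 39 after the downstream one. Timp2, which did not pass, has a GC box at -37.

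Many members were not detected. Of the 48 genes, 26 were above background on all 4 arrays, 6 on some and 16 on none. The 16 read 3.68 to 5.82, with differences of -0.46 to 0.55 and 0 had a p under 0.05 by limma before adjustment. They are Mmp1a, Mmp1b, Mmp3, Mmp7, Mmp10, Mmp21, Adamts3, Adamts8, Adamts13, Adamts15, Adamts16, Adamts17, Adamts18, Adamts19, Adamts20 and Timp4. In 20 of the 48 genes (41.7%) both Hem1 KO arrays lay above both WT arrays, against 12.5% of all genes, and in 5 (10.4%) both lay below, against 13.3%.

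Markers of stromal cells were higher beside the raised proteases and inhibitors. Of 11 measured stromal markers 6 (54.5%) were called higher, against 1.48% of all genes, and 0 lower, with a median difference of 1.75. In 9 of them (81.8%) both Hem1 KO arrays lay above both WT arrays, against 12.5% of all genes. The mean log2 value of the 11 was 7.24 and 6.84 on WT against 8.76 and 8.24 on Hem1 KO arrays. Lum and Thy1, which mark fibroblasts, were below background on all arrays, and Fap on 3 of 4, whereas Col1a1, Pdgfrb and Acta2 were above it on all. The 9 macrophage markers lay the other way, with a median difference of -0.37. The part of stromal cells in the rise of Mmp2, Mmp14, Mmp16, Mmp23, Adamts4, Adamts5, Timp1 and Timp3 was not tested. In these bulk cultures more cells of a type and more RNA per cell cannot be told apart.

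Markers of neutrophils, cells rich in MMP8 and MMP9, did not pass. Limma called 0 of 10, with 0 under an unadjusted p of 0.05 in either direction, and their median difference was -0.22. Of these markers 5, among them Mpo, S100a8 and Ltf, were below background on all arrays. Csf3r and Elane were above it on all arrays, and 3 markers on some. Csf3r measured 11.38 and 10.45 in WT against 10.92 and 10.10 in Hem1 KO cultures. The difference was below 0 in 7 of the 10 markers and above 0 in 3. The mean over all 10 was 6.21 and 5.61 in WT against 6.17 and 5.41 in Hem1 KO cultures. Of 8 osteoclast markers 2 (25%) were called lower, against 0.133% of all genes, and 0 higher. The 2 were the fusion gene Dcstamp (difference -4.81), below background on both Hem1 KO arrays, and the proton pump gene Atp6v0d2 (-2.43). Before adjustment 3 had a p under 0.05, the third being the acid phosphatase gene Acp5 (-1.20), whose Hem1 KO arrays both lay below the WT arrays. The rest, Ctsk (0.65), Ocstamp (0.21), Calcr (0.08), Itgb3 (-0.03) and Nfatc1 (-0.09), overlapped between the genotypes. The osteoclast list had a median of -0.06, and its part in the fall of Mmp9 was not tested. Of 6 endothelial markers 1, Cdh5, was called higher (list median 0.07), of 7 basophil and mast cell markers 1, Mcpt8 (list median -0.01), and of 5 dendritic cell markers limma called 0, with 0 under an unadjusted p of 0.05 (list median 0.03).

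**Figure D4:**
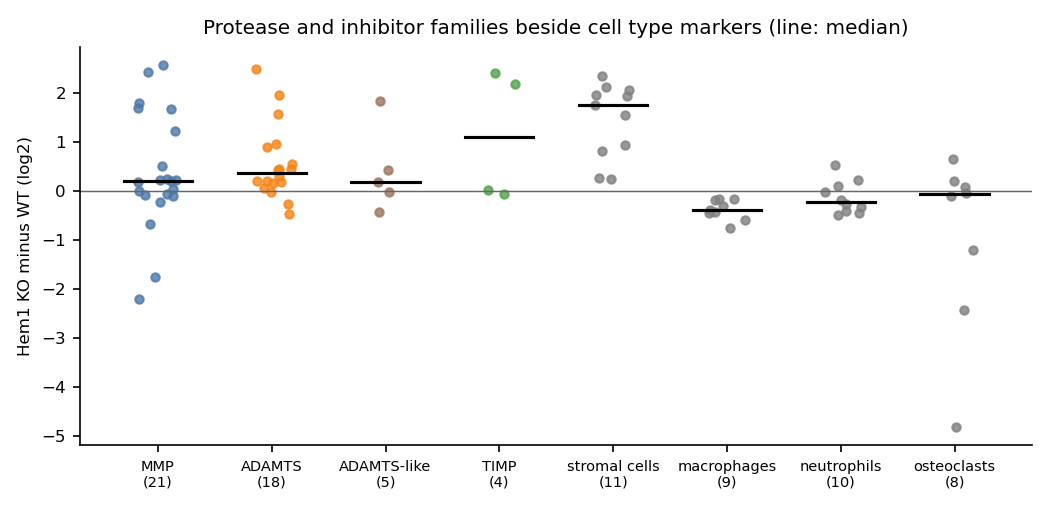
Log2 difference between Hem1 KO and WT macrophages for each gene of the 4 families and of the marker lists of stromal cells, macrophages, neutrophils and osteoclasts (number of genes in brackets); the line is the median and the sideways scatter has no meaning. The stromal markers spread from 0.24 to 2.36 with a median of 1.75. Timp1 and Timp3 lie above 2 while the other TIMP genes lie near 0, and the MMP genes spread from -2.21 to 2.58.

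Other genes of the pathway were read beside the members. Of 51 measured partners, 3 were called higher and 0 lower by limma (8 and 1 at an unadjusted p under 0.05), with a median difference of 0.13. These 3 are 5.88% of the partners, against 1.48% of all genes called higher. Both Hem1 KO arrays lay above both WT arrays in 27.5% of the partners, against 12.5% of all genes. The call in the list of inhibitors outside the TIMP family, 1 of 10, was Pcolce, which is no protease inhibitor but enhances procollagen C-proteinases. It measured 8.44 and 7.85 in WT against 10.57 and 9.98 in Hem1 KO cultures (log2 difference 2.13, SE 0.35, adjusted p = 0.00526 by limma). Fbln1, which encodes a matrix protein that acts as a cofactor of ADAMTS1, differed by 1.17 without overlap and did not pass (SE 0.33, adjusted p = 0.165 by limma), and neither did the inhibitors Reck (0.45) and A2m (0.03).

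Among 11 docking and clearance receptors the call was Mrc2, Endo180, which takes up cleaved collagen. It measured 7.05 and 6.43 in WT against 8.88 and 8.53 in Hem1 KO cultures (1.96, SE 0.34, adjusted p = 0.00723 by limma). A list of 9 genes held proteoglycans and the related matrix proteins Comp, Hapln1 and Hapln3. Its call was Vcan, versican, a substrate of ADAMTS1, ADAMTS4 and ADAMTS5. Versican measured 8.37 and 7.25 in WT against 10.50 and 9.14 in Hem1 KO cultures (2.02, SE 0.46, adjusted p = 0.0461 by limma). Of the other proteoglycans decorin, Dcn (2.13, SE 0.52, adjusted p = 0.0673), and biglycan, Bgn (1.10, SE 0.33, adjusted p = 0.22), did not pass by limma, again without overlap between the genotypes. In Pcolce, Mrc2 and Vcan, too, both Hem1 KO arrays lay above both WT arrays. Without WT replicate 2 the calls of Mrc2 (1.65) and Vcan (1.46) ended, and that of Vcan also ended after quantile normalization (2.06), with only genes above background on at least 2 arrays (adjusted p = 0.218 by limma) and with all probe sets and controls (adjusted p = 0.139).

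Limma called 0 of 8 activators of latent proteases, with 0 at an unadjusted p under 0.05, the smallest p being those of urokinase, Plau (-0.84), and the convertase Pcsk6 (0.73). It called 0 of 3 plasminogen system regulators, with 1 at an unadjusted p under 0.05, the urokinase inhibitor Serpinb2 (0.97), beside the urokinase receptor Plaur (-0.29). Of 10 ADAM genes 0 were called, although before adjustment Adam12 (0.82) and Adam19 (-0.91) had a p under 0.05.

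Single arrays and settings decided some of the calls. Without WT replicate 2 the differences of Adamts5 (1.46, adjusted p = 0.198 by limma), Mmp16 (1.29, adjusted p = 0.416), Mmp14 (1.23, adjusted p = 0.54) and Mmp9 (-1.45, adjusted p = 0.205) no longer passed. No call of the 10 ended without any other single array. Quantile normalization ended the call of Mmp9 (adjusted p = 0.0574). Testing only genes above background on at least 2 arrays ended those of Adamts4 and Mmp9 (adjusted p = 0.0509 each), Adamts5 (0.115), Mmp14 (0.112) and Mmp16 (0.121), and keeping every probe set and control in the adjustment ended those of Adamts5, Mmp14 and Mmp16. Mmp2, Mmp23, Timp1, Timp3 and Mmp8 passed in all 11 alternative fits.

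**Figure D5:**
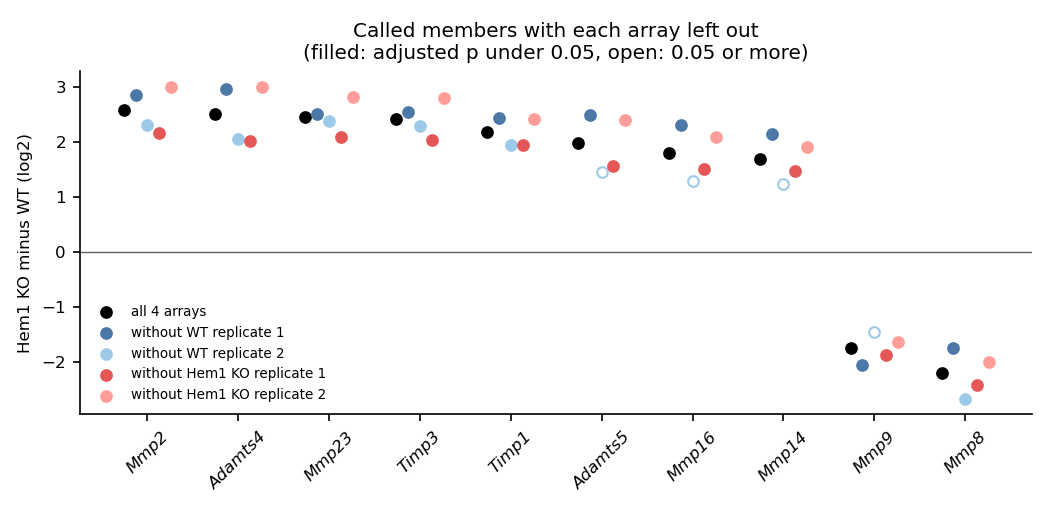
Log2 difference between Hem1 KO and WT macrophages for the 10 called genes with all 4 arrays (black) and with each array left out in turn; filled points have an adjusted p under 0.05 by limma and open ones do not. The open points of Adamts5, Mmp16, Mmp14 and Mmp9 all belong to the fit without WT replicate 2, and no difference changes sign.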

How the data were processed

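RNA of 4 macrophage cultures was measured on 1 array each. The deposited values are log2 values made by the authors with RMA, per the submitters' processing notes, without version or settings, and run from 2.70 to 14.0, from which the scale was inferred. Background correction could not be varied from these values. The table has 29129 rows: 19572 are annotated with 1 gene, 0 with several and 9557 with none, and the last were not tested. The brightest probe set per gene by mean over the arrays left 19505 genes (55 genes had several). All 48 member symbols matched RefSeq (GRCm38.p6) by Entrez ID.

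The genotype effect was estimated by limma 3.58.1, run in R 4.3.3 (lmFit, eBayes, two-sided, Benjamini-Hochberg over all genes). It was also run on simulated arrays drawn from its own fitted spread, with no offset between arrays. That run checks the code and cannot show how well the model holds for the real arrays. Called means an adjusted p under 0.05. An exact permutation test of 2 against 2 cannot go below 0.333. Differences are Hem1 KO minus WT, and the number of arrays limits the precision. Members and lists were chosen with earlier results of these data known. Named are called members, those at an unadjusted p under 0.05 or above background on all arrays, the TIMPs, and called partners or, for a list without any, the 2 of lowest p. Outside that rule the uncalled partners Fbln1, Reck, A2m, Dcn and Bgn were named too. Markers of basophils, mast cells, endothelial and dendritic cells were also summarised. Alternatives left out each array, used the replicate number as a block, or changed the scaling, the filter, the prior, the probe sets or the background.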

Additional observations from a re-analysis of the deposited data

How the results depend on the processing

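Counts of members called higher (8) ran from 6 to 13 with 1 array left out, and were 13 with the replicate block, 4 with only genes above background on at least 2 arrays and 5 with all probe sets and controls. Members called lower (2) ran from 1 to 2 with 1 array left out, and numbered 1 after quantile normalization and 1 with the filter on dim genes. Partner genes called higher (3) ran from 1 to 9 with 1 array left out, and numbered 8 with the replicate block, 6 after centring, 5 with the intensity trend, and 2 each with the filter on dim genes and with all probe sets. Partners called lower (0) ran from 0 to 1 with 1 array left out and numbered 2 with the block. The filter on dim genes moved the ADAMTS median to 0.91 and the TIMP median to 2.18 by leaving genes out.

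Nckap1l ran from -1.62 to -1.20 with 1 array left out, and its call ended with the filter on dim genes (-1.41, adjusted p = 0.0868) and with all probe sets (-1.41, adjusted p = 0.121). Centring moved the median of all genes from 0.01 to -0.09. Signs turned in genes close to 0: after centring Mmp28 read -0.10 and Timp4 -0.075, and after quantile normalization Mmp28 read -0.10, Timp4 -0.079 and Timp2 0.071. With 1 array left out the ranges crossed 0 for Adamts10 (-0.32 to 0.29), Adamts12 (-0.0067 to 0.62), Adamtsl1 (-0.34 to 0.73), Adamtsl2 (-0.43 to 0.40), Adamtsl5 (-0.88 to 0.049), Mmp19 (-0.17 to 0.055), Mmp20 (-0.13 to 0.57), Mmp24 (-0.16 to 0.65), Mmp28 (-0.47 to 0.48), Timp2 (-0.15 to 0.022) and Timp4 (-0.15 to 0.20). Where no cause is given, the cause was not tested. With the replicate block the members that passed besides the 10 were Mmp13 (adjusted p = 0.0144), Mmp11 (0.00232), Adamts1 (0.000886), Adamtsl3 (0.000431) and Adamts6 (0.0159). The labels do not say that a replicate number marks a shared day or litter, and deviations of same-numbered arrays correlated at 0.24 across genes. Background at the 90th or 99th percentile left 35 or 22 members above it on at least 2 arrays in place of 32. Where 1 array is left in an arm, its spread is taken from the other genotype.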
